A study of Homo sapiens with 6 samples.

Results

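The angiogenic ligands described here are 10 secreted factors that act on blood vessels: VEGFA, VEGFB, VEGFC, PGF, ANGPT1, ANGPTL4, ADM, EDN1, PDGFA and PDGFB. They were chosen by gene symbol, and all 10 were found among the 60708 genes listed in the count table. Messenger RNA was sequenced in Caki-1 cells, a human clear cell renal carcinoma line that carries wild-type VHL. All 6 libraries came from cells infected with CRISPR lentivirus and selected with puromycin. The 3 VC libraries received the vector alone and have the genotype WT. The 3 VHL-KO libraries received guide RNA against VHL and are described as clonal, and which guide or clone was sequenced is not given in the sources used here. Nor is it given whether the VC cells were cloned. Differences due to the choice of clone and those due to VHL loss therefore cannot be told apart. Total counts ran from 28463579 to 34881739 per VC library and from 22628246 to 29139722 per VHL-KO library. Nothing states that the 3 libraries of a group came from separate cultures, so p-values measure only the spread between these libraries, which may be technical.

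The VHL protein marks the alpha subunits of hypoxia-inducible factor (HIF) for destruction when oxygen is present. When VHL is lost in renal cells, HIF accumulates and switches on genes that cells otherwise use under low oxygen, VEGFA among them. Secreted VEGFs bind receptor tyrosine kinases on endothelial cells, and clear cell renal tumours are known for their dense vessels.

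Of 6 kidney epithelial markers, 3 were abundant and 3 were low or absent. PAX8, a kidney lineage transcription factor, averaged 427 ± 38.8 CPM in VC (read counts as a share of the library, scaled by TMM factors; SD, n = 3) and 614 ± 14.2 in VHL-KO. The keratins KRT8 and KRT18 were abundant too and, like PAX8, called higher in VHL-KO. PAX2 had no count, CDH1, the epithelial cadherin, had at most 3 counts in a library, and EPCAM, an epithelial adhesion molecule, was low and called lower, at 1.33 ± 0.299 and 0.491 ± 0.263 TMM CPM (SD, n = 3 each). The 8 endothelial markers summed to 0.556 to 1.69 TMM CPM in VHL-KO libraries and 0.658 to 0.908 in VC libraries, with CLDN5, EMCN and ERG at 0. ROBO4 had the highest mean of them in VC (0.563 TMM CPM) and PECAM1 in VHL-KO (0.423). PECAM1, an endothelial adhesion molecule, had 1, 5 and 0 counts in the VC libraries, against 14, 7 and 9 with VHL-KO. The 6 pericyte and fibroblast markers summed to 49.3 to 58.1 TMM CPM in VC and 81.3 to 93.5 in VHL-KO. Of these, ACTA2 was called higher (20.5 and 61.4 TMM CPM; 36.0% of its exonic bases lie in exons on the other strand and 7.1% in those of another gene on its own), COL1A1 was called lower (33.6 and 25.1), and RGS5 was not called (0.886 and 0.483). The 7 leukocyte and platelet markers summed to 1.5 to 2.11 and 4.22 to 5.84, led by CD14, with CD3E and PF4 at 0. The part of these genes in the results below was not tested. In bulk libraries, fewer cells that express a gene and less RNA per cell cannot be told apart.

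VHL, the edited gene, had 1454, 1124 and 1522 counts in the VC libraries, against 929, 657 and 650 with VHL-KO. The groups did not overlap in TMM CPM, with 40.1 ± 2.38 in VC and 31.9 ± 2.49 in VHL-KO (SD, n = 3 each). The fitted log2 fold change was -0.33 ± 0.11 (SE; edgeR quasi-likelihood test, Benjamini-Hochberg adjusted p = 0.0109). The call was lost without VC replicate 1 (-0.28, adjusted p = 0.0862) or VHL-KO replicate 2 (-0.30, adjusted p = 0.0621), with upper quartile factors (-0.22, adjusted p = 0.0905), and after offsets for GC content and length (-0.08, adjusted p = 0.452), and the sign turned with the same offsets not centred in each library (0.17, adjusted p = 0.105), in a range of adjusted p from 0.000292 to 0.452. An edit that shifts the reading frame need not lower the mRNA, and 23.5% of the exonic bases of VHL also lie in exons of a gene on the other strand.

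A filter of at least 10 reads in 1 or more libraries left 17401 genes, of which 10394 (59.7%) differed between VHL-KO and VC at an adjusted p under 0.05. The higher genes made up 28.5% of those tested and the lower genes 31.2%. Of the 10 ligands, 8 were tested and 7 of those differed: VEGFA, VEGFB, ANGPTL4 and ADM were higher in VHL-KO, and VEGFC, PGF and PDGFB were lower. The 7 are to be read against that 59.7%. A change of at least 2-fold was called for 6 of the 8, against 26.2% of all genes tested, and the groups did not overlap for 7 of the 8, against 64.7% of all genes tested. The median log2 fold change was 0.95 over the 8 tested ligands and -0.01 over all genes tested. The ligands were chosen with earlier results of these data known, so these shares and medians are descriptive only. The ligand median lies midway between PDGFA and VEGFB, with no ligand near it, and was 0.54 with GC and length offsets, a setting looked at for the medians after seeing the data. Scaling by library size alone moved the all-gene median to -0.20, and 35.8% of calls were then higher in VHL-KO, against 47.7% with TMM factors.

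**Figure D1:**
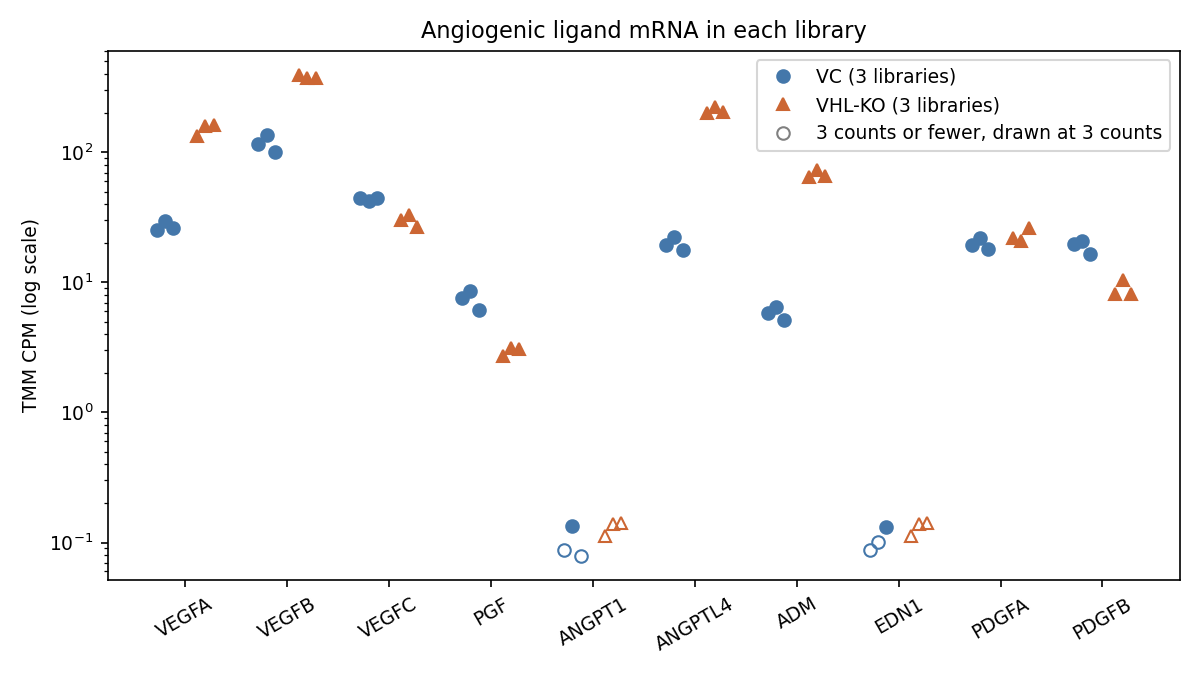
TMM CPM on a log axis for the 10 ligands, 1 point per library, circles for VC and triangles for VHL-KO; open symbols stand for 3 counts or fewer and are drawn at the level of 3 counts. VEGFA, VEGFB, ANGPTL4 and ADM sit higher in all 3 VHL-KO libraries, VEGFC, PGF and PDGFB sit lower, PDGFA overlaps, and ANGPT1 and EDN1 each have 1 point above the level of 3 counts, in VC.

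VEGFA is the principal growth and permeability factor for blood vessel endothelium, encoded at chr6:43770184-43786487 (GRCh38). It had 870, 884 and 1001 counts in the VC libraries, against 3585, 3431 and 3484 with VHL-KO. Every VHL-KO library lay above every VC library, at 152 ± 15.7 against 27.2 ± 2.25 TMM CPM (SD, n = 3 each). This was a log2 fold change of 2.48 ± 0.11 (SE; edgeR, adjusted p = 1.4e-15), a 5.6-fold difference, and 4.7% of tested genes had a larger absolute change.

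VEGFB, which binds FLT1 but not KDR and has a modest effect on vessel growth, is encoded at chr11:64234584-64239264. Its counts were 3977, 4031 and 3825 in VC and 10561, 7984 and 7917 in VHL-KO. The TMM CPM of the VHL-KO libraries were close together at 395, 370 and 371, all above the VC values of 116, 136 and 101. The log2 fold change was 1.69 ± 0.10 (SE; edgeR, adjusted p = 7.1e-13), and offsets for GC content and length lowered it to 1.13 (adjusted p = 3.1e-13; 4.2e-69 to 3.5e-10 over the alternatives).

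VEGFC and PGF moved the other way. VEGFC, the main growth factor of lymphatic vessels (chr4:176683538-176792922), had 1514, 1249 and 1680 counts in the VC libraries, against 805, 708 and 566 with VHL-KO. All 3 VHL-KO libraries were lower, at 29.8 ± 3.14 against 43.5 ± 1.31 TMM CPM (SD, n = 3 each), and the log2 fold change was -0.55 ± 0.11 (SE; edgeR, adjusted p = 0.000142). PGF, placental growth factor, a ligand of FLT1 (chr14:74941834-74955626), had 261, 254 and 232 counts in the VC libraries, against 73, 68 and 65 with VHL-KO. Its groups were also apart, at 7.43 ± 1.23 and 2.98 ± 0.218 TMM CPM (SD, n = 3 each), with a log2 fold change of -1.32 ± 0.19 (SE; edgeR, adjusted p = 2.2e-06). With offsets for GC content and length the PGF difference was larger, at -1.91 (adjusted p = 2.9e-09; 3.6e-10 to 6.6e-05 over the alternatives). VEGFD, a relative of VEGFC that is not among the 10 ligands, had 14, 2 and 12 counts in VC libraries and 23, 8 and 6 in VHL-KO libraries and was not called (log2 fold change 0.92, adjusted p = 0.224; 0.28 to 1.35 with 1 library left out).

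Levels can be set beside each other between genes only per length, and TMM CPM per kilobase of exonic sequence is used for that. On this scale VEGFB made up 74.9% of the summed mRNA of these 4 genes in VC and 89.5% in VHL-KO (means of 3 libraries; SD 2.88 and 0.892). The VEGFC share was 21.1% in VC and 5.3% in VHL-KO, and the VEGFA share 2.4% and 4.9%. The summed level was 79.5 ± 8.77 in VC and 215 ± 6.25 in VHL-KO (SD, n = 3 each). The shares depend on the length taken. The canonical transcript length, an alternative chosen after seeing the data, is 3.61 kb for VEGFA in place of all 14.4 kb of exonic bases. With that length the VEGFA share was 7.9% in VC and 15.8% in VHL-KO, and the VEGFB share 67.5% and 78.6%.

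**Figure D2:**
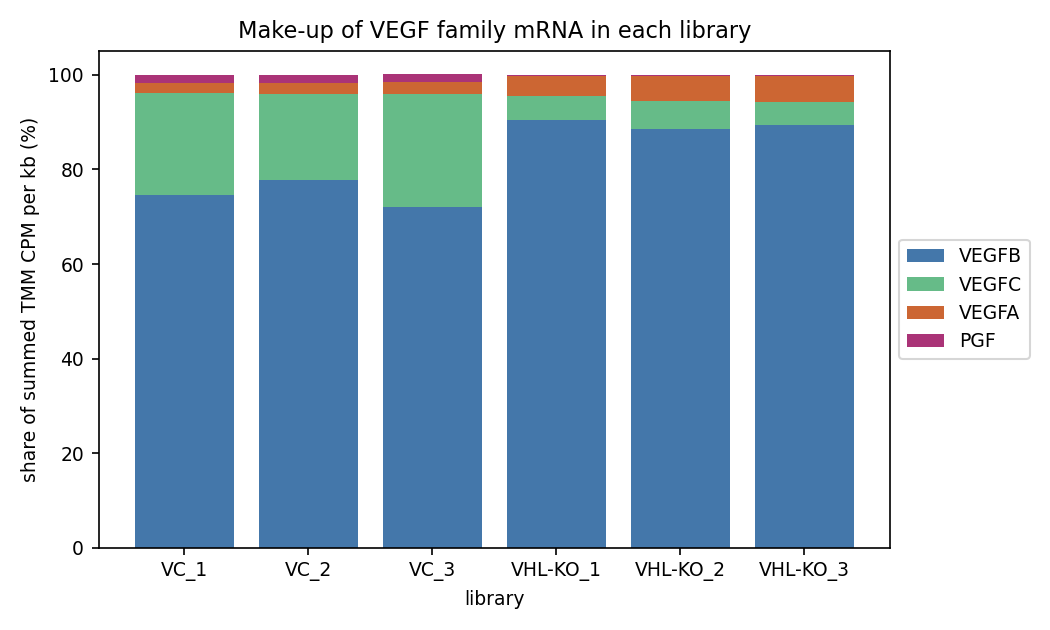
Share of the summed TMM CPM per kilobase of exonic sequence held by VEGFB, VEGFC, VEGFA and PGF, 1 bar per library, each bar adding to the whole. VEGFB holds 72.1 to 77.8% in VC and 88.6 to 90.4% in VHL-KO, and the VEGFC share is smaller in all 3 VHL-KO libraries.

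The count ratio of VEGFA to VEGFB within a library does not depend on scaling between libraries. It was 0.219, 0.219 and 0.262 in VC and 0.339, 0.43 and 0.44 in VHL-KO, so that every VHL-KO library was higher. The mean log2 ratio differed by 0.78, with an exact two-sided permutation p of 0.1, the smallest that 3 against 3 libraries allow, and 0.1 after adjustment over the 2 ratios computed. After offsets for GC content and length the difference was 1.43.

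ANGPTL4 was abundant and ANGPT1 nearly absent. ANGPTL4, a secreted inhibitor of lipoprotein lipase that also acts on endothelial barriers (chr19:8363289-8374370), had 666, 659 and 673 counts in the VC libraries, against 5374, 4828 and 4328 with VHL-KO. The groups were far apart, at 19.8 ± 2.24 and 209 ± 12.5 TMM CPM (SD, n = 3 each). This was a log2 fold change of 3.40 ± 0.11 (SE; edgeR, adjusted p = 4.5e-18), a 10.6-fold difference. ANGPT1, an agonist of the TEK receptor that stabilises vessels (chr8:107249482-107498055), had 1, 4 and 0 counts in VC and none in VHL-KO, too few to be tested.

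Of ADM and EDN1, the vasoactive peptides among the ligands described here, only ADM was tested. ADM encodes adrenomedullin, a vasodilator peptide (chr11:10305073-10307397), and had 199, 193 and 194 counts in the VC libraries, against 1728, 1571 and 1411 with VHL-KO. Every VHL-KO library was above every VC library, at 67.9 ± 4.32 against 5.81 ± 0.693 TMM CPM (SD, n = 3 each). The log2 fold change of 3.55 ± 0.13 (SE; edgeR, adjusted p = 5.0e-17), 11.7-fold, was the highest of the 8 tested ligands with TMM factors, and 1.7% of tested genes had a larger absolute change. EDN1, the precursor of the vasoconstrictor endothelin-1 (chr6:12290361-12297194), had 3, 3 and 5 counts in the VC libraries, against 2, 3 and 0 with VHL-KO and was not tested. The planned ratio of ADM to EDN1 was not computed over all 6 libraries because of that count of 0.

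PDGFA and PDGFB are the chains of platelet-derived growth factor, which recruits and expands pericytes and other mesenchymal cells. PDGFB (chr22:39223359-39244982) had 670, 617 and 627 counts in the VC libraries, against 218, 224 and 175 with VHL-KO. The VHL-KO libraries were all lower, at 8.91 ± 1.27 against 19 ± 2.2 TMM CPM (SD, n = 3 each), with a log2 fold change of -1.09 ± 0.15 (SE; edgeR, adjusted p = 7.5e-07). PDGFA (chr7:497258-520296) had 666, 654 and 686 counts in the VC libraries, against 582, 447 and 556 with VHL-KO. Its groups overlapped in TMM CPM, at 19.9 ± 1.99 and 22.8 ± 2.84, and the log2 fold change of 0.20 ± 0.13 (SE; edgeR, adjusted p = 0.177) did not pass the threshold. PDGFA passed it without VC replicate 2 (0.30, adjusted p = 0.0434) and with upper quartile factors (0.31, adjusted p = 0.0367), and its sign turned with offsets for GC content and length (-0.05, adjusted p = 0.685; 0.0367 to 0.941 over the alternatives).

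Within a library, the counts of PDGFB to PDGFA stood at 1.01, 0.943 and 0.914 in VC and at 0.375, 0.501 and 0.315 in VHL-KO. The mean log2 ratio was -0.07 in VC and -1.36 in VHL-KO, a difference of -1.29 with no overlap (exact two-sided permutation p = 0.1, adjusted p = 0.1 over the 2 ratios computed).

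**Figure D3:**
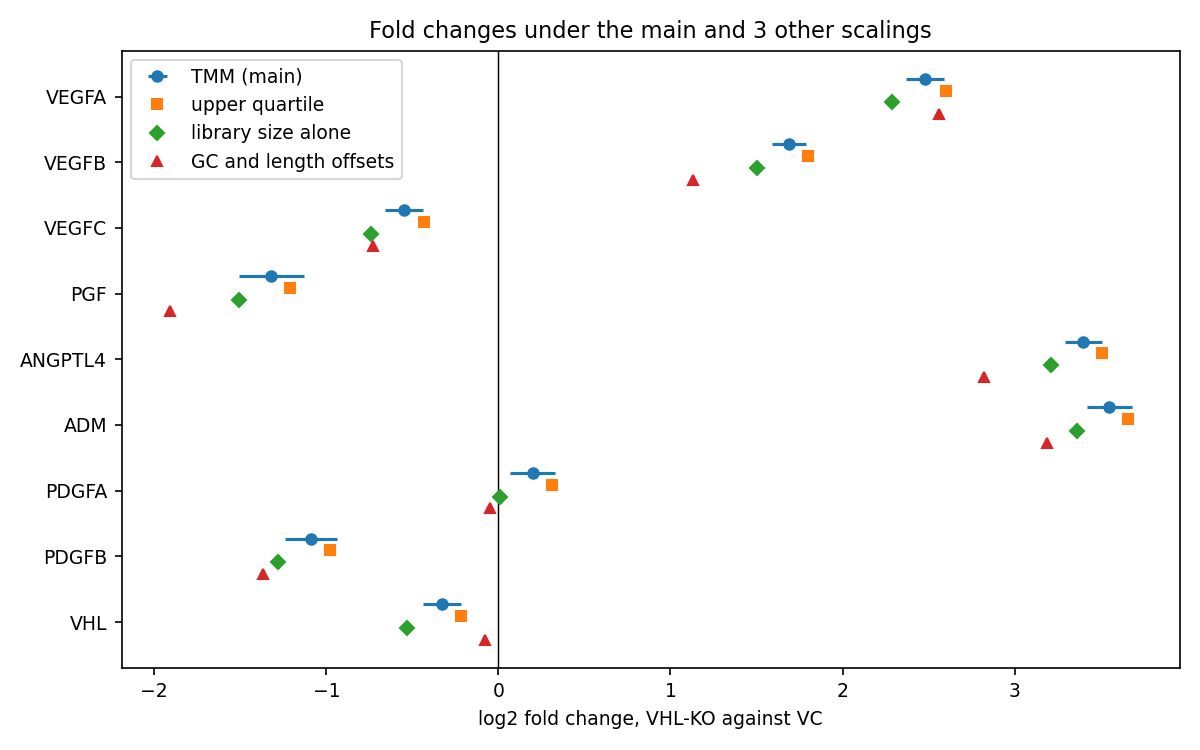
Log2 fold change of the 8 tested ligands and VHL under TMM factors (circles, bars are SE), upper quartile factors, library size alone, and GC and length offsets. The 7 called ligands keep their direction under these 4 settings, while PDGFA lies between -0.05 and 0.31 and VHL between -0.53 and -0.08.

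Ordered by TMM CPM per kilobase of exonic sequence, VEGFB was the most abundant ligand mRNA in both groups, at 59.7 ± 8.87 in VC and 192 ± 7.24 in VHL-KO (SD, n = 3 each). In VC it was followed by VEGFC (16.6), ANGPTL4 (8), PDGFB (4.75), PDGFA (4.33), ADM (2.5), VEGFA (1.88) and PGF (1.28), of which PDGFB and PDGFA overlapped. In VHL-KO the order was ANGPTL4 (84.5), ADM (29.2), VEGFC (11.4), VEGFA (10.5), PDGFA (4.98), PDGFB (2.23) and PGF (0.513), of which VEGFC and VEGFA overlapped. EDN1 and ANGPT1 were last in both groups. The order depends on the length taken. With the canonical transcript length VEGFA stood in place 4 in both groups, overlapping PDGFA in VC and ADM in VHL-KO. In VC that length also put PDGFA (7.24) above PDGFB (5.09), and PGF (4.27) above ADM (3.89), with PDGFB, PGF and ADM overlapping from each to the next.

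RefSeq promoter windows (GRCh38.p14), from 250 bases before to 50 after a gene's start, were matched for 7 ligands and not for VEGFA, PDGFB and ANGPT1. They were searched on both strands for the core letters of the HIF response element, ACGTG or GCGTG. All 7 ligands held at least 1 match, 2 with ACGTG and 6 with GCGTG, counted over all starts of a gene. Of 35116 promoter windows, 48.4% held either, 21.4% ACGTG and 36.5% GCGTG. These shares are per window, while PDGFA, EDN1 and PGF had several windows each, so the ligand counts cannot be set directly against them. The contexts of 3 ligands that rose and 1 that fell are shown to set the letters beside the values, with the match in capitals as read on the gene's strand: ANGPTL4 (chr19:8363909-8363937), ADM (chr11:10304960-10304988), VEGFB (chr11:64234511-64234539) and VEGFC (chr4:176792965-176792993). In ANGPTL4 and VEGFC the core reads on the opposite strand. The RefSeq start used can differ from the gene bounds printed above: the ANGPTL4 match lies inside those bounds, not before them.
ANGPTL4: ggaaagaagagtCACGTctcccacggttc
ADM: gagcaggagcgcGCGTGgctgaggaaaga
VEGFB: ccggtggggagcGCGTGtctgggtcacat
VEGFC: gcccgggctcggCACGCtccctccctcgg
A match is a description of the letters only. It occurred in ligands that rose, in ligands that fell, in PDGFA, not called in the main fit, and in EDN1, not tested.

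The genes whose pattern over the 6 libraries was closest to a ligand were found by the root mean square difference of centred log2 TMM CPM. Each ligand was compared with 10905 other genes that averaged at least 100 normalized counts and had a count in every library. With only VC and VHL-KO compared, a small difference largely reflects a similar log2 fold change. Shared regulation was not tested. ADM and ANGPTL4 were among each other's 3 closest genes, with a difference of 0.074. CDH16, a kidney cadherin, was close to ANGPTL4 (0.046) and to ADM (0.082). IGFBP3, which binds insulin-like growth factors, followed for ANGPTL4 (0.087) and C1S, a complement protease, for ADM (0.088). The closest to VEGFA were TMEM140 (0.063), HLA-C, a class I antigen-presenting molecule (0.091), and the non-coding LINC02015 (0.097). Log2 fold changes were 3.40 for ANGPTL4, 3.55 for ADM, 3.42 for CDH16, 3.33 for IGFBP3 and 3.56 for C1S. For VEGFA it was 2.48, against 2.44 for TMEM140, 2.41 for HLA-C and 2.48 for LINC02015.

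The receptors through which these ligands act on vessels mostly had few counts in Caki-1 cells, and 8 of the 14 listed were not tested. FLT1, TEK and RAMP3 had no count in any library. KDR, the main signalling receptor for VEGFA, had 4, 0 and 9 counts in VC and none in VHL-KO. FLT4, TIE1, PDGFRA and RAMP2 had between 0 and 7 counts per library. Of the 6 tested, 3 were called, all lower in VHL-KO, against 59.7% of all genes tested called and 31.2% called lower. With no filter beyond 1 count, 4 receptors were called, among them a receptor that was not tested in the main fit. EDNRA, EDNRB and CALCRL reached 10 reads only in VC libraries, so their entry into the test favoured a lower value in VHL-KO, and no median is given.

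The neuropilins, co-receptors for VEGFs, were the abundant ones. NRP1 averaged 185 ± 15.3 TMM CPM in VC and 124 ± 11.8 in VHL-KO (SD, n = 3 each), with no overlap and a log2 fold change of -0.58 ± 0.10 (SE; edgeR, adjusted p = 1.3e-05). With GC and length offsets NRP1 was still called, at -0.27, and with the offsets not centred in each library the call was lost (-0.03, adjusted p = 0.744; 2.4e-10 to 0.744 over the alternatives). NRP2 averaged 212 ± 11.3 and 198 ± 22.1 with overlapping groups (log2 fold change -0.10, adjusted p = 0.362), was called lower with library size alone (-0.29, adjusted p = 0.00852), had the opposite sign with upper quartile factors (0.01, adjusted p = 0.935), and was called higher with the offsets not centred (0.22, adjusted p = 0.00506; 0.00506 to 0.935 over the alternatives). PDGFRB, the receptor of PDGFB, was lower, as its ligand was: it had 282, 319 and 293 counts in the VC libraries, against 55, 50 and 55 with VHL-KO, with a log2 fold change of -1.94 ± 0.20 (SE; edgeR, adjusted p = 7.7e-09).

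Receptors for the vasoactive peptides were close to the floor. EDNRA, an endothelin receptor, had 8, 9 and 14 counts in the VC libraries, against 2, 1 and 0 with VHL-KO. This was a 7.06-fold difference with a 95% counting interval of 2.2 to 36.1. Its call was lost without VHL-KO replicate 3 (log2 fold change -2.21, edgeR adjusted p = 0.0557). Without VC replicate 3, EDNRA, EDNRB and CALCRL did not pass the filter and were not tested. The EDNRA values ran from -3.47 to -2.21 over the fits with 1 other library left out. EDNRB had 5, 8 and 10 counts in the VC libraries, against 2, 5 and 0 with VHL-KO, and CALCRL, the receptor of adrenomedullin, 5, 7 and 16 against 4, 0 and 1. Neither passed the test on all 6 libraries, and CALCRL passed it without VHL-KO replicate 1 (log2 fold change -3.31, adjusted p = 0.0385).

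Of 8 tested enzymes that process the ligands, 5 were called, 2 of them higher and 3 lower, against 59.7% of all genes tested called. Of these 3, PCSK5 reached 10 reads only in VC libraries, so its entry into the test favoured a lower value in VHL-KO, and no median is given. ECE1, which cleaves the endothelin precursor, rose by 0.87 ± 0.10 and PAM, which amidates adrenomedullin, by 0.71 ± 0.10 on the log2 scale (SE). CCBE1 and ADAMTS3, which act together to activate VEGFC, were both lower, with log2 fold changes of -1.36 ± 0.12 and -1.36 ± 0.20 (SE). PCSK5, a proprotein convertase, had 11, 8 and 14 counts in the VC libraries, against 0, 2 and 0 with VHL-KO, an 11.3-fold difference with a 95% counting interval of 2.89 to 97. Its fitted log2 fold change of -3.29 ranged from -6.29, without VHL-KO replicate 2 and so with no count left in that group, to -2.67 without VHL-KO replicate 1. FURIN, a convertase of several growth factors, averaged 84.5 ± 7.18 and 72.1 ± 10.3 TMM CPM and was not called (log2 fold change -0.23, adjusted p = 0.0653), but passed in 7 of 16 alternatives: with library size alone (-0.42, adjusted p = 0.00159), with no filter beyond 1 count (-0.27, adjusted p = 0.023), without VC replicate 3 (-0.27, adjusted p = 0.0253), without VHL-KO replicate 3 (-0.34, adjusted p = 0.0162), and with GC and length offsets (-0.55, adjusted p = 2.2e-06), also with the replicate block (-0.56) or not centred (-0.31). PLAT, a plasminogen activator, was not called (-0.09, adjusted p = 0.518) except, as lower, with library size alone (-0.28, adjusted p = 0.035).

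Among 9 endogenous inhibitors of angiogenesis, 7 were tested, of which 3 were called higher and 2 lower, against 59.7% of all genes tested called. THBS1, thrombospondin-1, had 19262, 19167 and 27516 counts in the VC libraries, against 2129, 1794 and 2095 with VHL-KO. It fell in every VHL-KO library, with a log2 fold change of -2.89 ± 0.11 (SE; edgeR, adjusted p = 1.1e-16). COL18A1, whose protein releases endostatin, rose by 1.03 ± 0.10 (0.54 with GC and length offsets), TIMP2 by 0.75 ± 0.08 and VASH1, vasohibin, by 1.49 ± 0.34 on the log2 scale (SE), the last from 19 to 25 counts per VC library. Exons of other genes cover 10.0% of the exonic bases of VASH1 on its strand and 18.9% on the other. On the other strand they cover 18.5% of those of COL18A1. ADAMTS1 was lower, with a log2 fold change of -0.55 ± 0.11 (SE), a call that was lost with the offsets not centred (-0.14, adjusted p = 0.114).

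Of 13 other vascular ligands tested, 8 were called lower and 3 higher, against 31.2% and 28.5% of all genes tested. The median log2 fold change of -0.41 is the value of PDGFC, and with GC and length offsets it was -0.28, the value of FGF2, or -0.05 with the offsets not centred. Among the 8, PDGFC lost its call without VC replicate 3 (-0.25, adjusted p = 0.0685) and with GC and length offsets (-0.05, adjusted p = 0.683), CCN2 without VHL-KO replicate 1 (-0.27, adjusted p = 0.0653), and FGF2, already down from -0.83 to -0.28 with the offsets, with the offsets not centred (-0.05, adjusted p = 0.661). PDGFD lost it without VC replicate 3 (-0.84, adjusted p = 0.103), without VHL-KO replicate 2 (-0.71, adjusted p = 0.0875) and with the offsets (-0.57, adjusted p = 0.211). FGF1, a fibroblast growth factor, was 4-fold lower, from 54, 53 and 51 counts in VC to 10, 8 and 9 in VHL-KO. EFNB2, an ephrin, was lower with a log2 fold change of -1.86 ± 0.15 (SE), and so was ADM2, a relative of adrenomedullin, at -1.36 ± 0.24. EFNA1, an ephrin ligand, rose by 1.99 ± 0.12 (SE). ANG, angiogenin, rose by 2.71 ± 0.49 from 20, 6 and 2 counts in VC to 44, 36 and 47 in VHL-KO, by 3.89 without VC replicate 1, and by 2.20 without VC replicate 3. It is also uncertain because 27.5% of its exonic bases are shared with other genes on its strand. EFNB2 shares 36.4% of its exonic bases with a gene on the other strand, and whether counting used strand is not given in the sources used here. ANGPT2, ANGPT4 and EDN3 had no count.

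A list of 10 HIF target genes served as a reference: 8 were called higher and 2 lower, against 28.5% and 31.2% of all genes tested. CA9, 1 of the 8, reached 10 reads only in VHL-KO libraries, so its entry into the test favoured a higher value there, and no median is given. CA9, carbonic anhydrase 9, had 0, 0 and 2 counts in the VC libraries, against 288, 247 and 233 with VHL-KO, a 562-fold difference with a 95% counting interval of 155 to 4646. Its fitted log2 fold change of 8.85 was 11.21 without VC replicate 3, which left no count in VC, and 8.35 without VC replicate 1. NDRG1 rose by 6.03 ± 0.11, ANKRD37 by 1.96 ± 0.21 and LDHA, lactate dehydrogenase A, by 1.41 ± 0.08 on the log2 scale (SE). Exons on the other strand cover 35.7% of the exonic bases of CA9 and 40.3% of those of ANKRD37. EGLN3, an oxygen-dependent HIF prolyl hydroxylase, went the other way, with 69, 41 and 67 counts in the VC libraries, against 10, 20 and 19 with VHL-KO and a log2 fold change of -1.26 ± 0.35 (SE; edgeR, adjusted p = 0.00337). EGLN1, another of these hydroxylases, was called lower (-0.41, adjusted p = 0.0307) but lost the call in 8 of 16 alternatives. These were 4 of the 6 fits with 1 library left out (without VC replicate 2, -0.35; without VC replicate 3, -0.31; without VHL-KO replicate 1, -0.34; without VHL-KO replicate 3, -0.40), upper quartile factors (-0.29), and GC and length offsets (-0.15), also with the replicate block (-0.14) or not centred (0.09), with adjusted p from 0.00353 to 0.579 over the alternatives. Of its exonic bases, 55.8% lie in another gene on its strand.

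**Figure D4:**
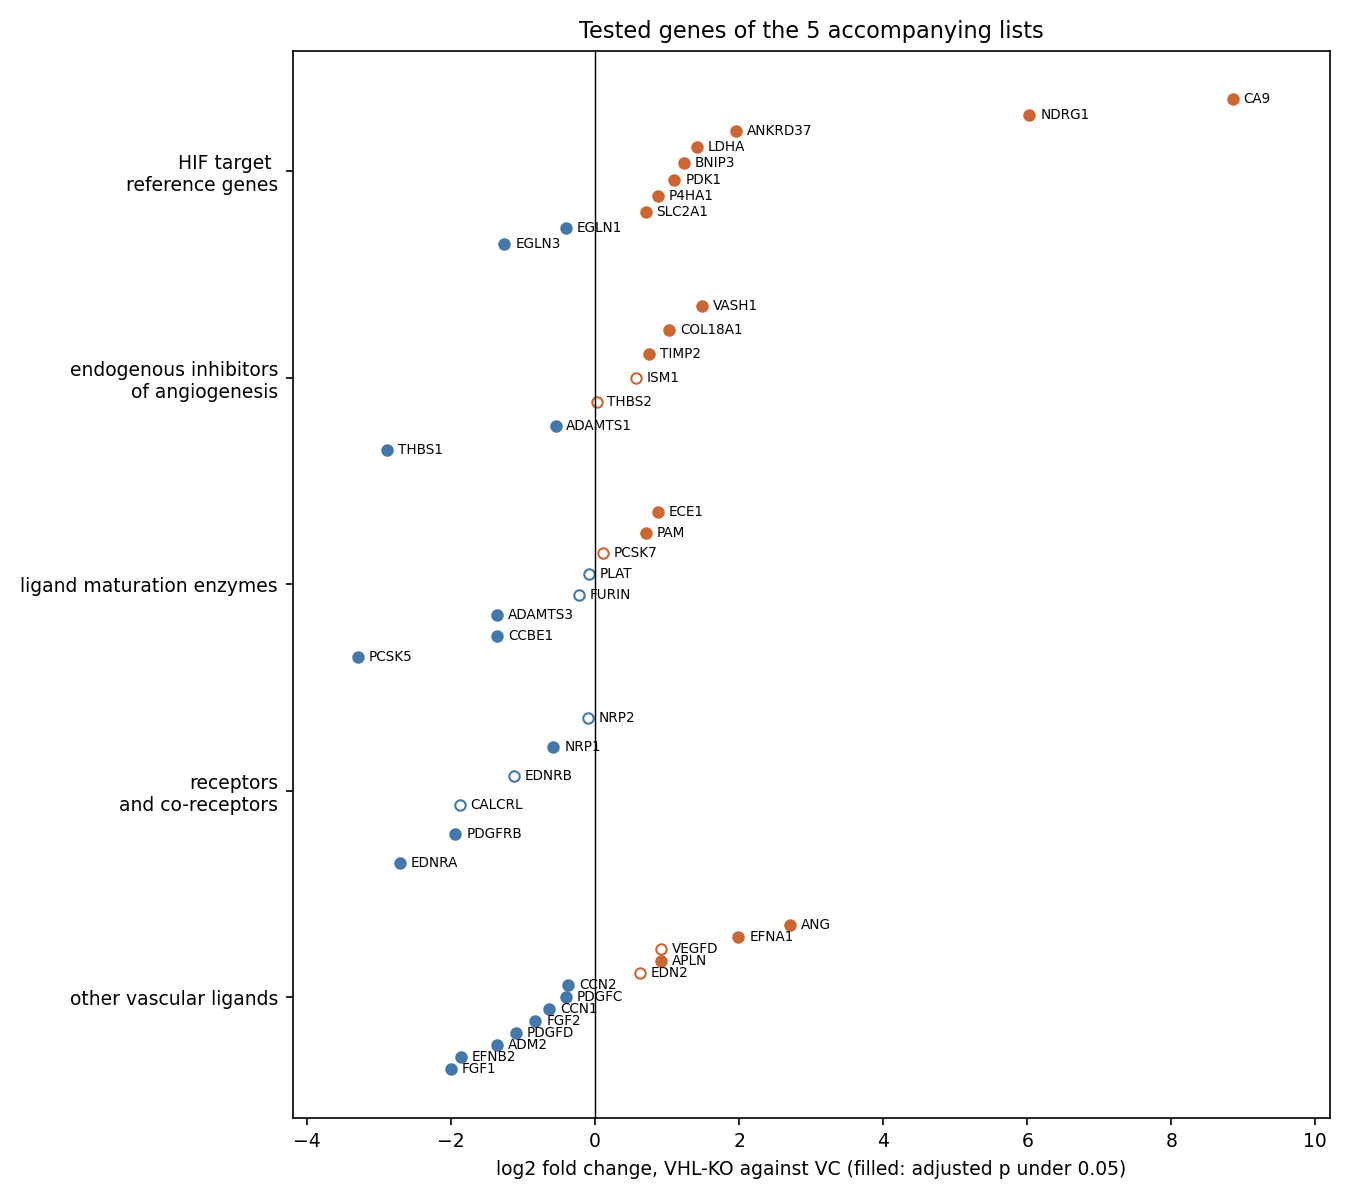
Log2 fold change of the tested genes in 5 lists, 1 point per gene, filled where the edgeR adjusted p is under 0.05 and open otherwise; the fitted values of CA9, PCSK5 and EDNRA rest on 2, 2 and 3 counts in the lower group. With TMM factors 3 of the 6 tested receptors are called, all lower, against 31.2% of all genes tested called lower. EDNRA, among those 3, reached 10 reads only in VC libraries. Of 10 HIF target genes 8 are called higher, against 28.5% of all genes tested. CA9, among those 8, reached 10 reads only in VHL-KO libraries. NRP2 is called lower with library size alone and higher with GC and length offsets not centred.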

How the data were processed

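The deposited values are raw read counts per gene, made by the authors by trimming with Trim Galore and cutadapt (reads of at least 20 nt kept), alignment with STAR to GRCh38, selection of uniquely mapped reads with SAMtools and counting with HTSeq; versions, annotation release and use of strand are not given in the sources used here. VHL-KO was compared with VC with the quasi-likelihood test of edgeR 4.0.16 in R 4.3.3 (TMM factors, at least 10 reads in any library, two-sided, Benjamini-Hochberg adjustment over all 17401 genes). Each SE was derived from that test, as the absolute log2 fold change divided by the square root of its F statistic. DESeq2 1.42.0, other factors and filters, each library left out, the replicate number as a block, and offsets for GC content and length (natural splines with 5 degrees of freedom, GENCODE 44) were alternatives. The offsets were first run without centring them in each library; after those results were seen they were centred, because their mean repeated a shift that TMM factors also remove, and both forms are reported. Zero is read against a floor of 3 counts, and intervals cover counting error only (exact binomial, 95%). Members and lists were chosen with earlier results of these data known. Named were the 10 ligands, VHL, all receptors and per list the called genes with the 5 largest absolute changes. The 3 genes closest in pattern to VEGFA, ANGPTL4 and ADM were named too. Other list genes were named after their values were seen: those not called, and the called genes PDGFC, PDGFD, FGF2, CCN2 and EGLN1. On simulated data, only 200 genes were changed, as many up as down. The fits recovered changes in genes averaging at least 100 counts and missed more of the smaller changes below that. This limit was set after a first run over all genes fell short. In the data 59.7% of genes were called, so the simulation does not test the scaling or the calls under so broad a change.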

Additional observations from a re-analysis of the deposited data

How the results depend on the processing

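The number of genes called ranged from 9215 to 10583 over the alternatives, against 10394. VEGFA, VEGFB, VEGFC, PGF, ANGPTL4, ADM and PDGFB kept their direction and stayed past the threshold in 16 of 16 alternatives each. PDGFA was 0.31 with upper quartile factors, 0.10 to 0.30 with 1 library left out, and -0.05 with GC and length offsets, without and with the replicate block. VHL was -0.22 with upper quartile factors, -0.39 to -0.28 with 1 library left out, and -0.08 with the offsets, without and with the replicate block. With the centred offsets PDGFC (-0.05), PDGFD (-0.57) and EGLN1 (-0.15) also lost their calls, as did EDNRA with the replicate block added (-2.27), and FURIN was called lower (-0.55). The cause was not tested.

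The offsets were centred after their first results were seen. Without centring, the all-gene median was 0.20, 63.0% of calls were higher in VHL-KO, and log2 fold changes turned sign for VHL (0.17), PDGFC (0.20), NRP2 (0.22), PLAT (0.16) and EGLN1 (0.09). None of the 10 ligands changed its call, while NRP1, FGF2, ADAMTS1, PDGFC, PDGFD, EDNRA and EGLN1 were no longer called lower. Calls were also gained, with NRP2, THBS2 (0.34) and PCSK7 (0.20) higher and FURIN (-0.31) lower. That the uncentred offsets remove the shift in composition a further time follows from their construction. The VHL difference was not past the threshold in either form.

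With other settings the sign turned, without a call, for some genes not called in the main fit: NRP2 with upper quartile factors (0.01), PLAT with upper quartile factors (0.03), PCSK7 with library size alone (-0.08) and with the offsets (-0.04), and THBS2 with library size alone (-0.17), with no filter (-0.01) and with 1 library left out (-0.07 to 0.11). Calls were gained with library size alone by NRP2 (-0.29), FURIN (-0.42) and PLAT (-0.28), all lower. Medians over the alternatives, taken after seeing the data, ran from 0.54 to 1.06 for the ligands and from -0.61 to -0.05 for the other vascular ligands. With the centred offsets NRP1 (-0.27), FGF2 (-0.28) and COL18A1 (0.54) kept their calls with smaller values. The length of the canonical transcript, added after seeing the data, moved the VEGFA level per kilobase to 7.53 in VC and 42.2 in VHL-KO, and in VC that of PDGFA to 7.24, PGF to 4.27 and ADM to 3.89.

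With the replicate block 10284 genes were called, and 7 ligands. Same-numbered libraries correlated at 0.122, -0.064 and 0.057, so the numbers were not taken to pair them, and not every library correlated best with its own number. The ratio of ADM to EDN1 has no value over all 6 libraries because of a count of 0 in VHL-KO replicate 3. Without that library it was 3.61 log2 units higher in VHL-KO (exact permutation test, p = 0.2, the smallest possible with 3 and 2 libraries). That value rests on 2 to 5 counts of EDN1 per library, around the floor of 3 counts, so no difference is read from it.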
